A study of Physcomitrium patens with 10 samples.

Results

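Leafy shoots (gametophores) of the moss Physcomitrium patens were compared in a pair of partly hydrated states: partially rehydrated gametophores (PRE), reached by rewetting after drying, and moderately dehydrated gametophores (MDH), reached by drying. The groups were chosen by sample title and hold 4 of the 10 samples of the series, replicates 2 and 3 of each state. The other states were hydrated (HD), severely dehydrated or desiccated (SDH) and fully rehydrated (FRE) gametophores, and all plants grew on BCD medium. One label calls the MDH treatment mild and another calls it moderate, and neither gives the water content of the tissue or the length of drying and rewetting. For 3 of these 4 samples a second label, the treatment, contradicts the title: it calls MDH replicate 2 hydrated and both PRE replicates severely dehydrated. The titles were followed because the columns of the deposited tables carry the same group names.

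The tables list 280 mature miRNAs by name, belonging to 108 families by number, as RPM, meaning reads per 1000000. Each state has a single value made by the authors from its replicates before deposit, so no difference below has a replicate check, an error or a p-value, and how many reads lie behind a value is unknown. A difference is given as log2((PRE + 1)/(MDH + 1)), which understates the difference of scarce miRNAs, for the 207 names of 75 families with at least 3 RPM in the higher state. A name is called higher or lower where that value passes 2-fold. Folds in the text are RPM divided by RPM without the pseudocount, given where both levels reach 1 RPM.

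Plant miRNAs are cut from hairpin transcripts by a DICER-LIKE enzyme and loaded on an ARGONAUTE protein, which then cleaves or silences mRNAs of matching sequence. Many families shared by mosses and flowering plants act on transcription factors of shoot development or on auxin response, while other families are known from mosses alone. This moss is used as a model of tolerance to drought and osmotic stress. Names that differ by a letter are members of one family, often with the same or nearly the same mature strand, and a -5p and a -3p name, or a name and its star, come from opposite arms of one hairpin.

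Nearly all large differences between the rewetted and the drying state ran one way. Of 207 names compared, 43 from 23 families were at least 2-fold higher in PRE (20.8%) and 2 were at least 2-fold lower (0.966%), so that 21.7% passed 2-fold either way. Past 4-fold stood 13 higher names and 1 lower name. The leading higher names were miR1043-3p, miR1023e-3p and both arms of miR1221, and the lower names were miR1052 and miR902f-3p. The median log2 difference over all names was 0.32, with the quartiles at -0.15 and 0.94, and 131 names lay above 0 and 76 below. The split depends on scaling: with median-of-ratios scaling, in which a state is divided by the median of its ratios to the mean profile of all states and which lowered the median of all names to 0.08 (a shift of -0.24), 23 names were higher and 10 lower, and with RPM rescaled to the sum over all names, which raised it by 0.31 to 0.62, 65 were higher and 2 lower. Of the 207 names, 192 reached 3 RPM in both states, 14 in PRE alone and 1 in MDH alone. A name that reached the minimum through one state alone could differ in one direction only. Of the 192 names that reached it in both states, 32 were higher and 1 was lower.

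**Figure D1:**
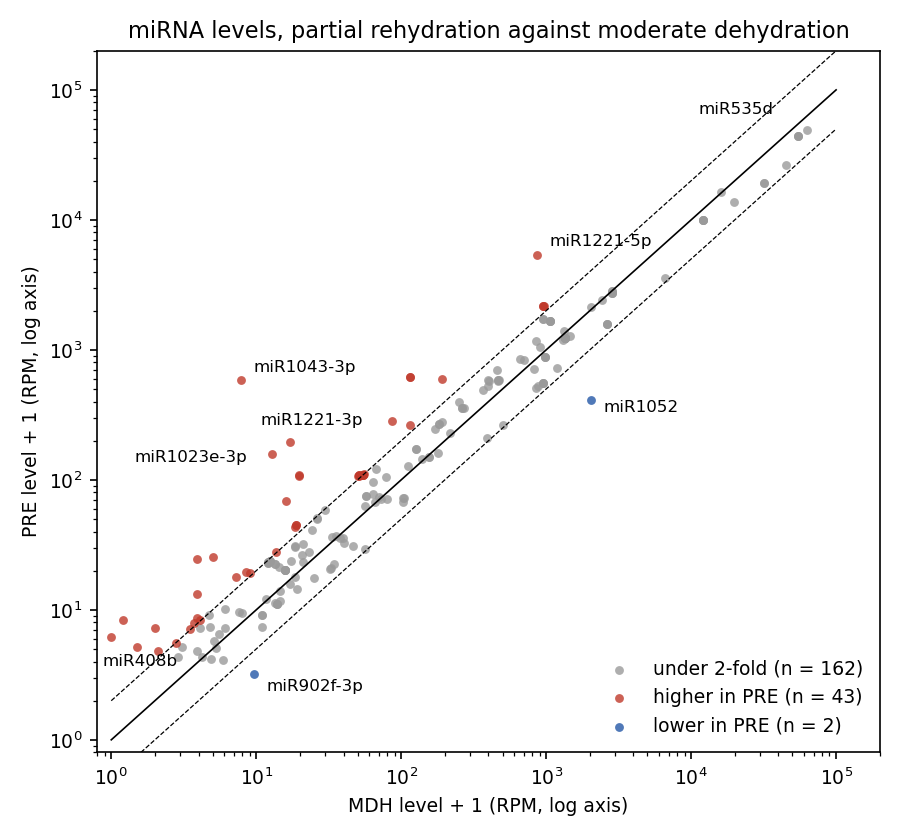
Level of each of 207 miRNA names in MDH (x axis) and PRE (y axis), in RPM plus 1 on log axes, with the line of equality and dashed lines at 2-fold. The 43 higher names (red) spread over the low and middle levels, the 2 lower names (blue) are miR1052 and miR902f-3p, and at the upper end of the axes the names are grey, most of them under the line of equality.

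**Figure D2:**
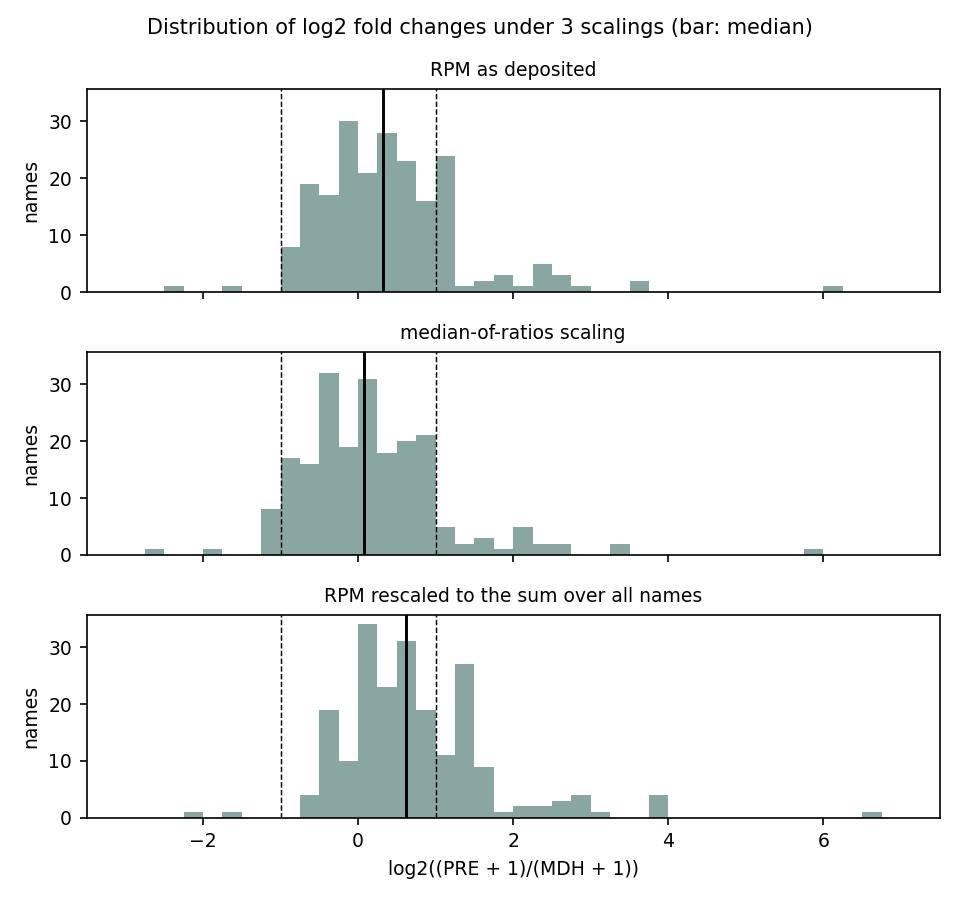
Number of names (y axis) by log2 difference of PRE against MDH (x axis) with RPM as deposited, with median-of-ratios scaling and with RPM rescaled to the sum over all names, for the same 207 names; the solid line is the median, at 0.32, 0.08 and 0.62, and dashed lines mark 2-fold. The right tail stays past 2-fold in all 3 panels, and the left side reaches 2-fold for 10 names with median-of-ratios scaling.

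The sum over all names ran against the median. It was 503544 RPM in MDH and 407334 RPM in PRE, which is 80.9% of MDH, and with near-identical copies counted once the PRE sum was 79.2% of the MDH sum. The difference of the sums lay in abundant families whose names were all below the 2-fold call or, in miR1023, mostly in such a name. The 4 miR535 names went from 227141 to 181887 RPM, 47.0% of the difference of the sums, the 3 miR156 names from 82797 to 52236 RPM, 31.8% of it, and miR1023, nearly all of it miR1023a-3p, from 45589 to 27090 RPM, 19.2% of it. miR536 went from 48450 to 39953 RPM, 8.83% of it, and families with a higher sum in PRE offset part of these falls. Near-identical copies, such as miR535a, miR535b and miR535c, count several times in these shares, which were not computed with copies counted once. The 47 names with a mean above 1000 RPM had a median log2 difference of -0.13, which was 0.18 with RPM rescaled to the sum, with 4 higher and 1 lower. The 82 names between 10 and 100 RPM had a median of 0.44, with 21 higher and 0 lower.

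Of all names, miR1043-3p, of a family outside the conserved list, differed most. It stood at 859.5 RPM (HD), 6.9 (MDH), 18.4 (SDH), 583 (PRE) and 70.9 (FRE), so PRE lay 84.5-fold above MDH (log2 difference 6.21). Levels listed below without state names follow this order, or MDH and then PRE where a pair is given. The level of miR1043-3p was low in both dried states and high in the hydrated and the partially rehydrated state, with FRE between. Its other arm miR1043-5p was listed at 0 in MDH and at 0.3 RPM in PRE, below the minimum.

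In RPM the largest gain, 4536, was that of miR1221-5p. It was at 17068 RPM (HD), 866 (MDH), 3138 (SDH), 5402 (PRE) and 9448 (FRE), 6.24-fold higher in PRE than in MDH. miR1221-3p was at 226, 16, 71.5, 195 and 196 RPM in the same order, 12.2-fold higher. For both arms MDH was the lowest of the 5 states, and PRE lay under HD.

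The members of miR1023 lay on opposite sides of 0. miR1023e-3p was at 1744 RPM (HD), 11.8 (MDH), 155 (SDH), 157 (PRE) and 133 (FRE), 13.3-fold higher in PRE than in MDH, with SDH, PRE and FRE at about one level. miR1023b-3p was at 322, 84.9, 401, 282 and 188 RPM, 3.32-fold higher in PRE than in MDH, and miR1023b-5p and miR1023c-3p also passed 2-fold, at 2.7 and 1.1 RPM in MDH and 6.9 and 3.8 RPM in PRE. The abundant miR1023a-3p was at 3805, 45433, 38776, 26612 and 24258 RPM, 1.71-fold lower in PRE than in MDH, and its partner miR1023a-5p was at 4.0, 55.6, 40.6, 28.2 and 53.5 RPM, 1.97-fold lower; with median-of-ratios scaling both passed 2-fold (-1.01 and -1.19). Of the 6 names compared 4 were higher, so the family median was 1.14, while the summed family gave -0.75, since miR1023a-3p outweighs the rest. Of these higher names, miR1023b-5p and miR1023c-3p reached the minimum through PRE alone and could differ in one direction only. With a minimum of 10 RPM the family median was 0.47.

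miR1073-3p, at 745, 15.1, 55.6, 67.7 and 39.2 RPM in HD, MDH, SDH, PRE and FRE, was 4.48-fold higher in PRE than in MDH. Its arm miR1073-5p was at 0.2 RPM in MDH and 7.3 RPM in PRE. miR2083-3p was at 28, 4.0, 3.7, 24.6 and 7.5 RPM, 6.15-fold higher, with SDH as low as MDH. miR902l-3p, at 2.1, 2.9, 9.1, 23.8 and 15.7 RPM, was 8.21-fold higher in PRE and was also scarce in HD. Between MDH and PRE, miR902l-3p and miR1073-5p reached the minimum through PRE alone. These are low levels, at which 1 step of the deposited scale is 0.1 RPM.

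**Figure D3:**
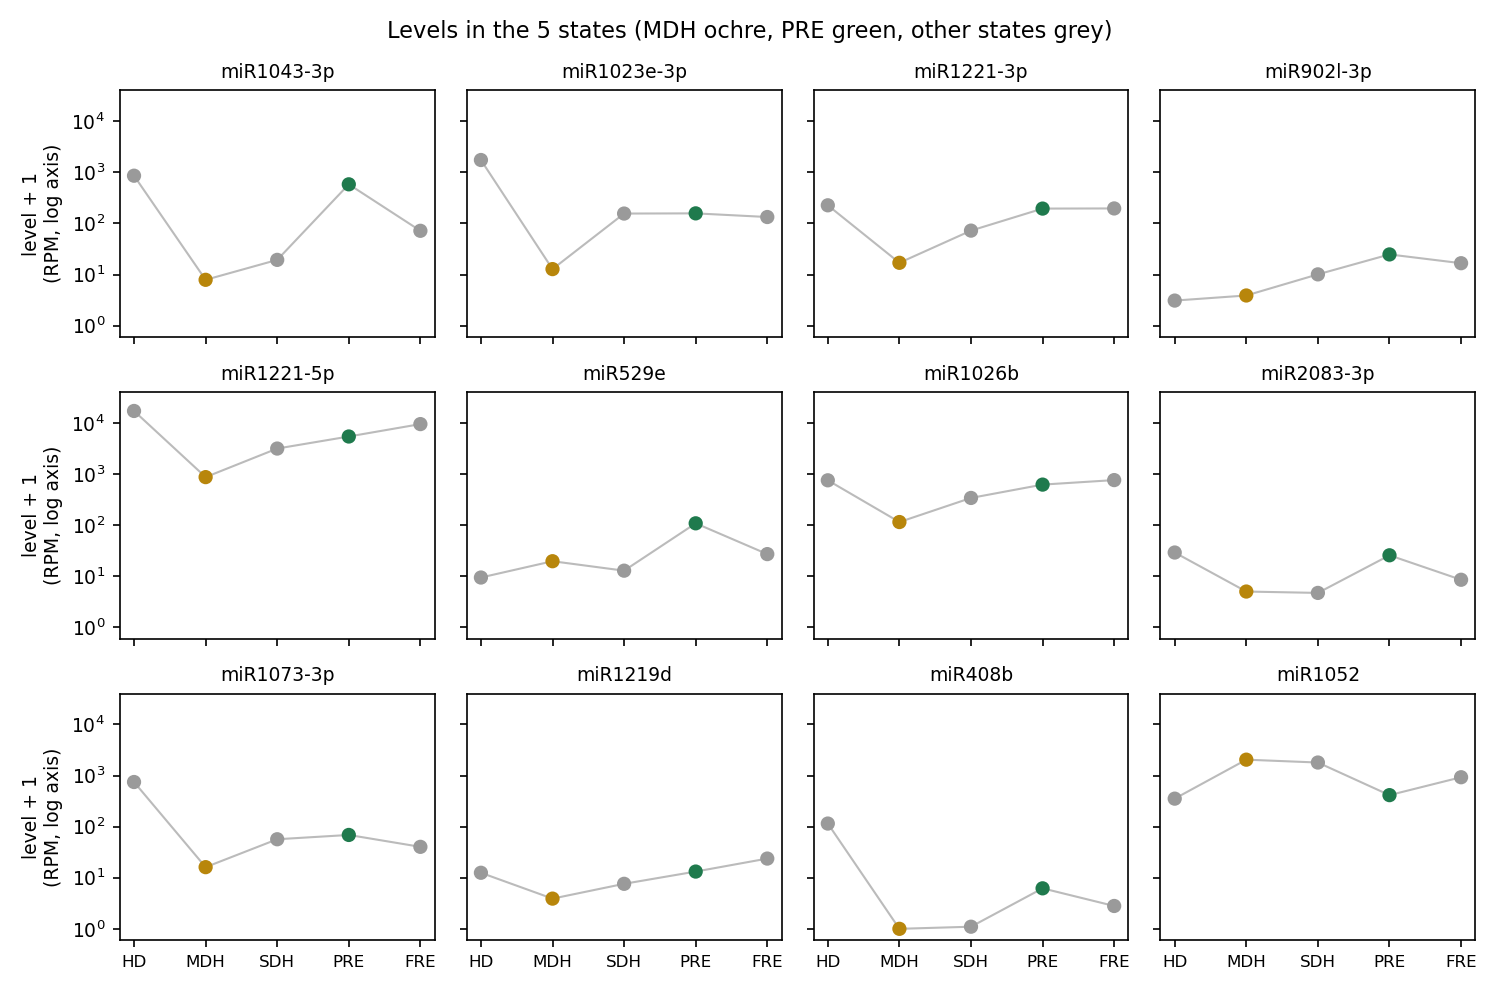
Level in RPM plus 1 (log axis) of 12 names in the 5 states, with MDH in ochre and PRE in green; each point is the authors' single value for a state, and the lines only join the points. For 8 of the 12 names, miR1043-3p, miR1023e-3p, both miR1221 arms, miR1026b, miR1073-3p, miR1219d and miR408b, MDH is the lowest state, and miR1052 has its highest level there.

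The miR156 and miR529 families, related miRNAs that target SPL transcription factors of shoot development, differed by member. The scarce miR529e was at 8.4 RPM (HD), 18.6 (MDH), 11.8 (SDH), 107 (PRE) and 26.0 (FRE), 5.76-fold higher in PRE than in MDH. miR529f had nearly the same values, and the pair cannot be told apart as separate observations. PRE was the highest state for this pair. The abundant members lay on the other side of 0: miR529d was at 620.3, 506, 405, 265.5 and 280.2 RPM, 1.91-fold lower in PRE, and miR529b and miR529c were 1.65-fold lower, at 2623 and 2615 RPM in MDH and 1591 and 1585 RPM in PRE. miR156a was at 31565 RPM in MDH and 19250 RPM in PRE, 1.64-fold lower, its near-identical copy miR156c had the same fold, and miR156b was at 19665 and 13734 RPM, 1.43-fold lower. Of the 10 names of both families, 2 were higher (20%, beside 20.8% over all names) and 0 lower by the 2-fold call, with a median log2 difference of -0.71 beside 0.32 over all names, and their levels summed to 91206 RPM in MDH and 57492 RPM in PRE.

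Among auxin-linked families, miR160 had names past 2-fold and miR390 had none. miR160 cleaves mRNAs of auxin response factors, and 5 of its 7 names compared were higher, with a median log2 difference of 1.03. miR160a was at 29.5 RPM (HD), 17.9 (MDH), 39.9 (SDH), 43.6 (PRE) and 34.8 (FRE), 2.44-fold higher in PRE than in MDH, and miR160f and miR160e were its copies. miR160b and miR160i were 2.44-fold and 2.39-fold higher at 2.5 and 3.1 RPM in MDH, whereas miR160c and miR160d were 1.22-fold higher. With median-of-ratios scaling miR160b and miR160i were under 2-fold and the miR160 median was 0.85, and with a pseudocount of 10 RPM the median was 0.41. miR1219d, whose family also targets auxin response factors in this moss, was at 11.5, 2.9, 6.6, 12.2 and 22.7 RPM, 4.21-fold higher, while miR1219a, miR1219b and miR1219c had identical values of 12.8 RPM in MDH and 10 RPM in PRE. miR390, the trigger of TAS3 trans-acting siRNAs that act on auxin response factors, had no name past 2-fold: miR390a was at 880.2 and 525 RPM and miR390b at 855 and 509 RPM, each 1.68-fold lower in PRE, miR390c at 179 and 161 RPM, and its star at 6.6 and 8.6 RPM. Of 15 auxin-related names 6 were higher (40%, beside 20.8% over all names) and 0 lower, at a median of 0.24 beside 0.32 over all names, and their sum was lower in PRE, at 1401 against 2031 RPM, because miR390 holds most of the reads. With near-identical copies counted once, 4 of 11 were higher, beside 31 of 140 over all names. Of the higher names, miR160b and miR1219d reached the minimum through PRE alone and could differ in one direction only.

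Among other regulators of transcription factors, miR538 was higher. This family targets MADS-box genes in the moss, and miR538a was at 1891 RPM (HD), 964 (MDH), 2367 (SDH), 2177 (PRE) and 1731 (FRE), 2.26-fold higher in PRE than in MDH. MDH was the lowest state. The 3 names of the family are near-identical copies and count as 1 observation, and their median of 1.19 was 0.95 with median-of-ratios scaling, short of 2-fold. miR1026, which targets a bHLH transcription factor gene in this moss, was higher by more: miR1026b was at 749.8, 113.5, 338, 617.5 and 757 RPM, 5.44-fold above MDH in PRE, and miR1026a had nearly the same values.

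The remaining developmental families stayed under 2-fold on the deposited scale, though miR166j, miR166k, miR166l, miR319d.1* and miR319d.2* passed it on the lower side with median-of-ratios scaling. miR166, which targets HD-ZIP III genes of leaf and meristem patterning, had 13 names in 3 sets of near-identical copies. miR166j, miR166k and miR166l were at 957 RPM in MDH and 553 RPM in PRE, 1.73-fold lower, whereas miR166a was at 1349 and 1236 RPM and miR166m at 2411 and 2427 RPM. The miR166 median of -0.13 became 0.18 with RPM rescaled to the sum. miR319, which targets MYB and TCP transcription factors in land plants, had all 7 names below 0 (5 of them with RPM rescaled to the sum), led by the abundant miR319d.2*, at 10045 RPM (HD), 6594 (MDH), 6112 (SDH), 3572 (PRE) and 14558 (FRE), 1.85-fold lower in PRE, and by miR319d.1* at 388 and 208 RPM. miR171a and miR171b, which target GRAS transcription factors, were both at 12.5 and 21.7 RPM, and miR534a, which targets BLADE-ON-PETIOLE genes, was at 18.2 and 13.5 RPM. Of 36 developmental regulators 5 were higher (3 of miR538, and miR529e and miR529f), which is 13.9% beside 20.8% over all names, and 0 lower, with a median of -0.13 beside 0.32 over all names, which became 0.17 with RPM rescaled to the sum.

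miR408b, of a family that targets mRNAs of copper-binding proteins, was at 114 RPM in HD, listed at 0 in MDH, at 0.1 in SDH, 5.2 in PRE and 1.8 in FRE. No fold is given against a level of 0, and its log2 difference of 2.63 rests on the pseudocount, being 0.60 with a pseudocount of 10 RPM. It was the single nutrient and copper name compared, and it reached the minimum through PRE alone, so it could differ in one direction only. Beside it, the stress-linked list held only the 7 miR319 names, so 1 of 8 was higher (12.5%, beside 20.8% over all names), and the median was -0.53 beside 0.32. It was also the largest difference in the list of conserved land-plant families, where 8 of 64 names were higher (12.5%, beside 20.8% over all names) and 0 lower, at a median of -0.13 (0.18 with RPM rescaled to the sum). Outside that list 35 of 143 names were higher (24.5%) and 2 lower, at a median of 0.47. With near-identical copies counted once, 5 of 37 and 26 of 103 were higher. Both counts of higher names include names that reached the minimum through PRE alone, such as miR408b and miR160b in the list and miR1073-5p outside it. The shares hold for the deposited scale. With median-of-ratios scaling 23 of the 207 names were higher, which was not split by list. The medians were then -0.37 in the list and 0.23 outside it.

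Of the families tied to the small RNA machinery, miR904, which targets the AGO1 gene in moss, was at 740.2 RPM (HD), 955 (MDH), 1056 (SDH), 1737 (PRE) and 839 (FRE) for miR904a, 1.82-fold higher in PRE than in MDH, with miR904b as its copy. miR1047-3p, whose hairpin lies in the DCL1 gene of the moss, was at 3.7 RPM in MDH and 8.2 RPM in PRE, a ratio of 2.22 that the pseudocount brought to a log2 difference of 0.97. None of the 3 names passed 2-fold on the deposited scale, with a median of 0.86 beside 0.32 over all names. With RPM rescaled to the sum all 3 passed it, at 1.17 (miR904a), 1.17 (miR904b) and 1.34 (miR1047-3p). That scaling raised the median over all names to 0.62. With median-of-ratios scaling the median of the 3 names was 0.62, beside 0.08 over all names.

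On the lower side, miR1052 was the single name of more than 10 RPM past 2-fold on the deposited scale. It was at 352 RPM (HD), 2041 (MDH), 1794 (SDH), 412 (PRE) and 925 (FRE), 4.95-fold lower in PRE than in MDH, with both dried states high and PRE close to HD. miR902f-3p was at 1.4, 8.7, 3.0, 2.2 and 1.1 RPM, 3.95-fold lower, at levels where few reads may lie behind a value. Between MDH and PRE, miR902f-3p reached the minimum through MDH alone and could differ in one direction only.

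None of the names chosen as most abundant passed 2-fold on the deposited scale. Besides miR1023a-3p and the miR156 names, given above, they were those of miR535 and miR1214. miR535d was at 129549 RPM (HD), 63177 (MDH), 79535 (SDH), 48898 (PRE) and 84852 (FRE), 1.29-fold lower in PRE than in MDH. The near-identical miR535a, miR535b and miR535c were at 54655 RPM or within 1 RPM of it in MDH and at 44330 RPM in PRE, 1.23-fold lower, a difference whose sign turned with RPM rescaled to the sum (0.00). miR1214 was at 16165 and 16373 RPM (log2 difference 0.02, or -0.22 with median-of-ratios scaling).

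Several families were blocks of names with nearly equal values. All 8 miR1063 names were higher, from 49.6 to 54.1 RPM in MDH and from 106.5 to 109.4 RPM in PRE, with log2 differences between 1.0 and 1.09. They form 2 sets of copies just past the threshold and their median was 0.81 after median-of-ratios scaling. The 7 miR1030 names compared lay just short of 2-fold with the pseudocount, at a median of 0.94. Without it their ratios lay between 1.99 (miR1030b) and 2.01 (miR1030a). The miR1030 median was 0.72 with median-of-ratios scaling, and 1.27, past 2-fold, with RPM rescaled to the sum. The 4 miR537 names were at 0.64, with miR537a at 1061 and 1656 RPM. All 10 miR477 names lay between 0.27 and 0.44, with miR477g-3p at 697 and 839.6 RPM. The 23 miR902 names spanned -1.60 to 2.67 with a median of 0.35, while the family sum was 3672 RPM in MDH and 3526 RPM in PRE. The 10 miR1223 names ran from -0.56 to 0.97 with a median of 0.03, which became -0.18 with median-of-ratios scaling, against 0.62 for their sum, in which miR1223a prevails at 250 and 400 RPM.

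**Figure D4:**
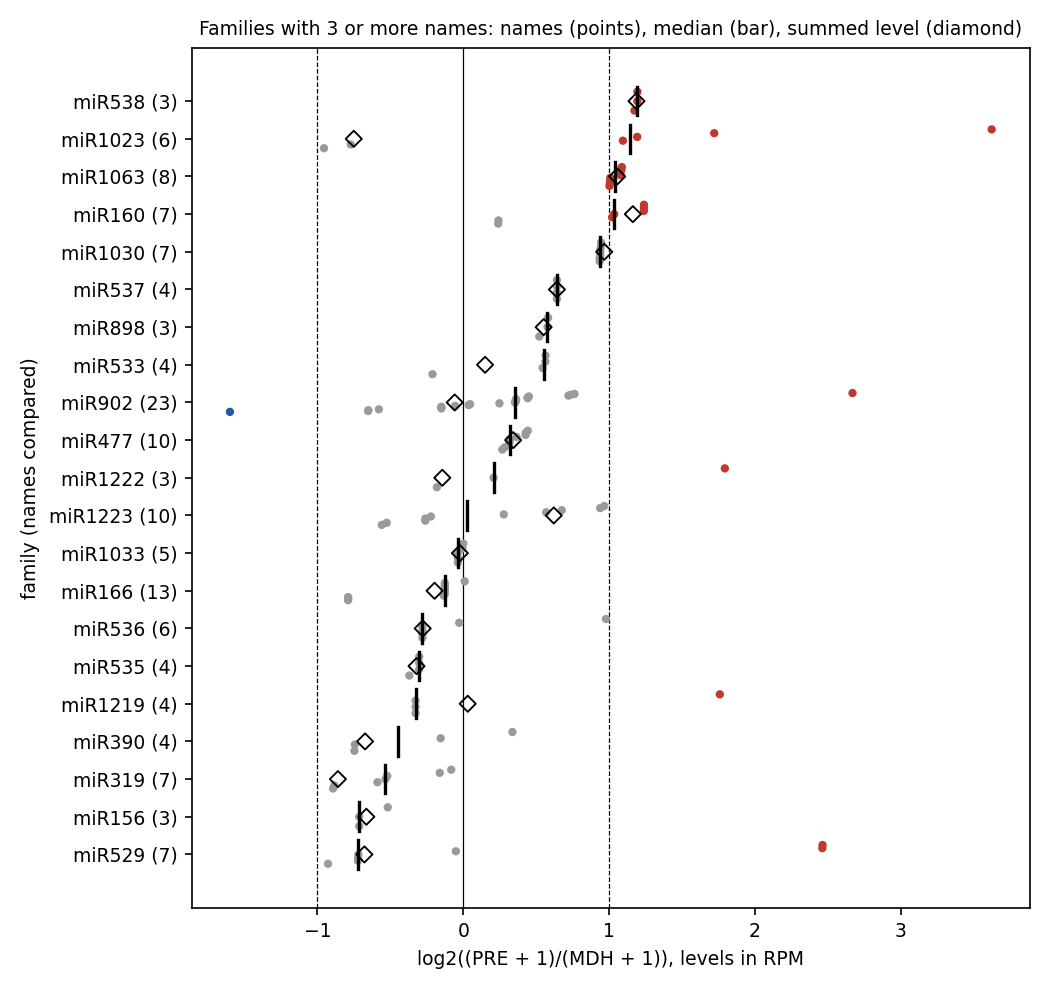
Log2 difference of PRE against MDH for every name of the 21 families with 3 or more names compared (points; red higher, blue lower, grey under 2-fold), with the family median (bar) and the value of the summed family (diamond). In miR529, miR902, miR1219, miR1222 and miR1023 single names lie far from the family median. In miR1023, miR902, miR1219 and miR1222 the diamond and the bar lie on opposite sides of 0.

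Just inside the 2-fold threshold lay miR1068 at 1.8 and 4.6 RPM (log2 difference 1.0) and miR1063f at 54.1 and 109.4 RPM (1.0). Just outside it lay miR536f at 28.9 and 57.9 RPM (0.98) and miR1047-3p. At the minimum of 3 RPM, miR1058 and miR1223j, at 3.3 RPM in PRE, were compared, while miR1031a and miR1031b, at 1.5 and 2.9 RPM, were not. Of the 73 names not compared, 20 were listed at 0 in both states. Listed at 0 in MDH and above 0 in PRE were 8 names, of which miR408b alone reached 3 RPM, and 0 names were listed at 0 in PRE alone.

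Opposite arms of one hairpin come from the same transcript, and 25 pairs of arms had both names compared. Their log2 differences had the same sign in 16 pairs and opposite signs in 9, lay less than 1 apart in 21 pairs, and had a median gap of 0.49. Both arms were higher in the 3 hairpins miR1221, miR1073 and miR1023b, although miR1023b-5p, at 2.7 and 6.9 RPM, was under 2-fold with median-of-ratios scaling (0.92), and in 5 pairs one arm alone passed 2-fold. Both miR1023b-5p and miR1073-5p, the latter at 0.2 and 7.3 RPM, reached the minimum through PRE alone. The direction of these arms was thus fixed by the minimum, and only for miR1221 did both arms reach it in both states. The widest gap was that of miR2083, with miR2083-5p at 32.5 RPM in MDH and 35.5 RPM in PRE beside the 6.15-fold of miR2083-3p. Next came miR902f, whose 5p arm was at 14.8 and 19.3 RPM, and miR902l, whose 5p arm was at 17.5 and 29.5 RPM. Arms of several miR902 hairpins have nearly identical values, so the 25 pairs are not separate observations. A list of every starred name and the scarcer arm of every hairpin had 29 names compared. Of these 7 were higher (24.1%, beside 20.8% over all names) and 1 lower, and their median was 0.43 beside 0.32 over all names. Of the higher names, miR1073-5p, miR1023b-5p, miR902l-3p and miR1217-5p reached the minimum through PRE alone. The lower name, miR902f-3p, reached it through MDH alone, so the direction of all these names was fixed by the minimum. The list is not 1 scarcer arm per hairpin: for miR1211 and miR533a the star is the more abundant arm, so both arms were included. The stars miR319d.1* and miR319d.2* were included as well. They formed no pair, since pairs were made by name and neither name is listed without its star. miR319d itself is listed, at 102 RPM in MDH and 70.9 RPM in PRE, and was not paired with them.

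**Figure D5:**
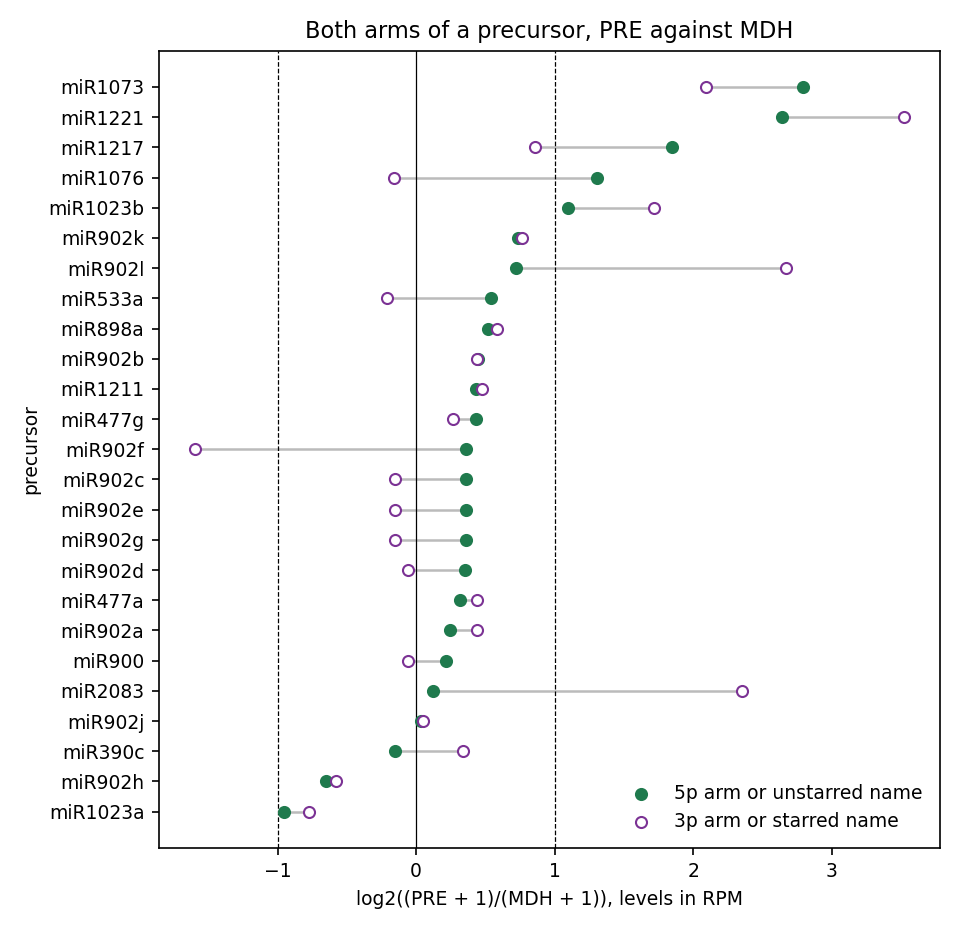
Log2 difference of PRE against MDH for both arms of 25 hairpins, with the 5p arm or unstarred name filled and the 3p arm or starred name open; dashed lines mark 2-fold. Both points lie right of the 2-fold line for miR1221, miR1073 and miR1023b, while miR2083, miR902f and miR902l have their arms farthest apart.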

How the data were processed

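Small RNAs of 18 to 30 nt were enriched from total RNA, ligated to adaptors, reverse transcribed and amplified by PCR, per the labels' protocols; ligation and PCR favour some sequences, so the same miRNA between states compares better than different miRNAs. The authors deposited levels in RPM, 1 value per group and in steps of 0.1 RPM. The total behind the RPM, the aligner, the miRNA reference, the counting of reads shared by family members and the way replicates were combined are not given in the sources used. The PRE and MDH columns of separate tables were joined by name; the hydrated column was identical in all 4 RPM tables. The 4 tables of comparisons with HD were not used, as none sets PRE against MDH.

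Log2((PRE + 1)/(MDH + 1)) was computed with Python 3.11.15, numpy 2.4.6 and pandas 2.3.3, tested on simulated data, for names with at least 3 RPM in the higher group, and 2-fold was the size called. No test was made, since each group has 1 value. Named were the 12 largest differences each way among names of at least 10 RPM, the 8 most abundant names and the largest difference of each list, with identical values as 1 item; other names were chosen after their values were seen. Lists by family number were conserved land-plant families (miR535, miR536, miR477, miR529, miR408, miR395, miR390, miR319, miR171, miR167, miR166, miR160, miR156), auxin-related (miR160, miR167, miR390, miR393, miR1219), regulators of developmental transcription factors (miR156, miR166, miR171, miR319, miR529, miR534, miR538), SPL regulators (miR156, miR529), small RNA machinery (miR162, miR168, miR403, miR904, miR1047), nutrient and copper (miR395, miR397, miR398, miR399, miR408, miR827) and stress-linked (miR159, miR169, miR319, miR393, miR394, miR396, miR398, miR408). Members and lists were chosen with earlier results of these data known. Near-identical copies are names of 1 family, linked in chains, within 5% or 0.5 RPM in all 5 states; 113 of 280 names fall in such sets, and single copies are uncertain.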

Additional observations from a re-analysis of the deposited data

How the results depend on the processing

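The number of higher names was 43, and that of lower names 2. With a pseudocount of 10 RPM these were 17 and 1, with a minimum of 10 RPM 33 and 1, with a minimum of 30 RPM 26 and 1, with median-of-ratios scaling 23 and 10, with RPM rescaled to the sum 65 and 2, and with 1 summed value per family 16 and 1. A pseudocount of 0.1 RPM (47 and 2), a minimum of 1 RPM (44 and 2) and 1 value per set of copies (31 and 2) kept both counts within 1.5 times. The median log2 difference of 0.32 was 0.12 with a minimum of 30 RPM, 0.079 with median-of-ratios scaling and 0.62 with RPM rescaled to the sum. All 23 higher names of the median-of-ratios scaling were among the 43, and its 8 added lower names were miR1023a-3p, miR1023a-5p, miR166j, miR166k, miR166l, miR319d.1*, miR319d.2* and miR529d. No name past 2-fold among the 35 chosen by the rule changed sign, and 24 of the 35 kept their side of 2-fold under both other pseudocounts and both scalings. The miR1023 median of 1.14 was 0.47 with a minimum of 10 RPM. With members summed the miR1023 value was -0.75, since miR1023a-3p holds nearly all the reads of the family. The auxin-related median of 0.24 became -0.24 with a minimum of 10 RPM, and the stress-linked median of -0.53 became 0.89 with members summed, where miR408b weighs as much as miR319. No paired analysis was possible because each group has 1 combined value, and for the same reason no replicate could be left out. Depth is unknown, so no limit on scarce names could be computed.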

Other observations

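Across the 5 states, 218 names reached 3 RPM somewhere. On the log2(RPM + 1) scale, 5 of them stood at least 2-fold above every other state in PRE: miR529e, miR529f, miR903, miR2080 and miR1076-5p. miR903 was at 104 RPM (HD), 191 (MDH), 93.6 (SDH), 597 (PRE) and 258 (FRE), and miR2080 at 29.2, 114, 102, 263 and 59.1 RPM. miR1076-5p was at 1.4, 6.2, 5.6, 16.8 and 4.5 RPM, while its other arm miR1076-3p was at 116, 78.8, 137, 70.3 and 71.1 RPM. No name stood at least 2-fold below every other state in PRE, SDH or FRE.

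MDH was the state at least 2-fold below every other for 13 names: both arms of miR1221 and of miR1023b, miR1023e-3p, miR1026a, miR1026b, miR1029, miR1043-3p, miR1073-3p, miR1077-5p, miR160b and miR160i. miR1077-5p was at 54.7 RPM (HD), 7.5 (MDH), 35.9 (SDH), 18.4 (PRE) and 16 (FRE), and miR1029 at 21.4, 8.1, 21.8, 18.2 and 22.3 RPM. For 1 name, miR902f-3p, MDH was the highest state by that rule. HD was the highest state for 11 names and the lowest for 13. These counts were made after the values were seen, rest on 1 value per state, and were not recomputed under the other scalings. The median-of-ratios factor was 0.851 for MDH and 1.0 for PRE.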
